A study of Mus musculus with 4 samples.

Results

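A total of 355 of the 19805 tiled probes (1.79%) gave a low ratio of nascent strands to genomic DNA on all 4 arrays. These probes were chosen by the measured ratio itself. For each array the log2 of the nascent strand signal over the genomic DNA signal was centred on its median, and a probe was retained when it lay in the lowest 10% of the probes on each array. The low ratios are therefore a description of how the probes were selected, whereas the base composition, the place in the tiled fragment and the neighbouring probes did not enter the choice. The 167 probes that lay in the highest 10% on each array are used for comparison.

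Short nascent strands are the newly made DNA close to replication origins (ORIs). They start with an RNA primer, which protects them from λ-exonuclease, while broken genomic DNA is digested. A probe near an active ORI therefore tends to give a high ratio over genomic DNA, and one that is replicated passively from a distant ORI a low ratio. The 60-base probes tile non-repetitive stretches, called fragments here, of chromosome 3 and of 2 regions of chromosome X.

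All DNA came from PGK12.1, a female mouse embryonic stem cell line that received no treatment, and each array compared nascent strands with total DNA of these cells. The 2 arrays of 100–600 nt strands carried the nascent DNA in Cy5 and the 2 arrays of 300–800 nt strands carried it in Cy3. Strand length can thus not be told apart from the dye, the array print and the version of the extraction software, and the results hold for 1 cell line, whose identity DNA arrays without expression data do not check. The 300–800 nt arrays lay on the same slide. The study describes them as 2 biological replicates. They correlated across probes with r = 0.989 and differed with an SD of 0.089 on the log2 scale, where repeated spots predict 0.101. Because they differed no more than repeated spots, together they are weighed as 1 sample here. The 100–600 nt arrays correlated with r = 0.551. The correlation of the 300–800 nt replicate 1 array was 0.214 with replicate 1 and 0.415 with replicate 2 of the 100–600 nt arrays. Correlations across probes are descriptions, since the probes of an array share its labelling and hybridisation. All 4 arrays hold a positive signal in both channels at every tiled spot, and their number limits the precision of all values.

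The 5 members with the lowest mean ratio over the 4 arrays and both members of the lowest adjacent pair are shown to make the composition of the low probes visible. Capitals mark the longest stretch without cytosine, and each line gives the fragment number and the offset of the probe in the fragment.
fragment 43367 (chromosome X), offset 60: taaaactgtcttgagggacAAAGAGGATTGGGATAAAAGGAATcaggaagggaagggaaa
fragment 65239 (chromosome X), offset 30: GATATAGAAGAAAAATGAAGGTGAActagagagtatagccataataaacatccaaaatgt
fragment 66092 (chromosome X), offset 10: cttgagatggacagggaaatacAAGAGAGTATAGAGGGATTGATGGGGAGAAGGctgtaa
fragment 109025 (chromosome 3), offset 40: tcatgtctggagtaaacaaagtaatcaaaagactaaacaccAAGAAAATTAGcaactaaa
fragment 105606 (chromosome 3), offset 10: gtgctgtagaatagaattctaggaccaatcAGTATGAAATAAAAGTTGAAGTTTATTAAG
fragment 67034 (chromosome X), offset 920: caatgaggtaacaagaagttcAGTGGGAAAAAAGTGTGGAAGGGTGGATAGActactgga
fragment 67034 (chromosome X), offset 1250: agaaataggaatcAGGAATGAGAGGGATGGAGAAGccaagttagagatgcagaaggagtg
For contrast, the 2 probes with the highest mean ratio among those high on all 4 arrays are given with the same marking.
fragment 66836 (chromosome X), offset 670: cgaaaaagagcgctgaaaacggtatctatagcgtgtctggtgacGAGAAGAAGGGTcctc
fragment 106197 (chromosome 3), offset 30: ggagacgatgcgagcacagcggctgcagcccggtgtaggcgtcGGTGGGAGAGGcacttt
The low probe of fragment 43367 holds 4 cytosines and 21 guanines, and its longest stretch without cytosine spans 24 bases. The high probe of fragment 106197 holds 14 cytosines and 26 guanines, with 11 bases in its longest such stretch. Not every printed probe follows this contrast. The low probe of fragment 109025 holds 10 cytosines and 8 guanines, and its longest such stretch also spans 11 bases. The high probe of fragment 66836 holds 11 cytosines, with 12 bases in that stretch.

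The limit of the lowest 10% lay at a log2 ratio of -0.73 and -0.94 on replicates 1 and 2 of the 100–600 nt arrays, and at -1.02 and -1.04 on those of the 300–800 nt arrays. The members had median log2 ratios of -1.03 and -1.47 on the 100–600 nt arrays and of -1.67 and -1.70 on the 300–800 nt arrays. Their lowest values were -3.19, -4.92, -4.21 and -4.23 in the same order. The probe with the lowest mean, of fragment 43367, gave log2 ratios of -3.19 and -2.34 with 100–600 nt strands and of -4.21 and -3.94 with 300–800 nt strands. The probe of fragment 65239 gave -1.09 and -2.35, then -4.11 and -3.91, and so was much lower on the 300–800 nt arrays. The single value of -4.92 belongs to fragment 66092 on replicate 2 of the 100–600 nt arrays, where the software marked the spot, while the other 3 arrays gave -1.25, -2.32 and -2.51. The 3 members nearest to the limit, of fragments 107149, 65724 and 45170, had their highest rank at 1979, 1977 and 1975 from the bottom on one of the arrays, and the 3 probes nearest outside, of fragments 106490, 109085 and 65826, at 1982, 1983 and 1985. The probe of fragment 109085, with log2 ratios of -0.73, -2.65, -1.98 and -2.03, was left out by its value on the 100–600 nt replicate 1 array alone.

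**Figure D1:**
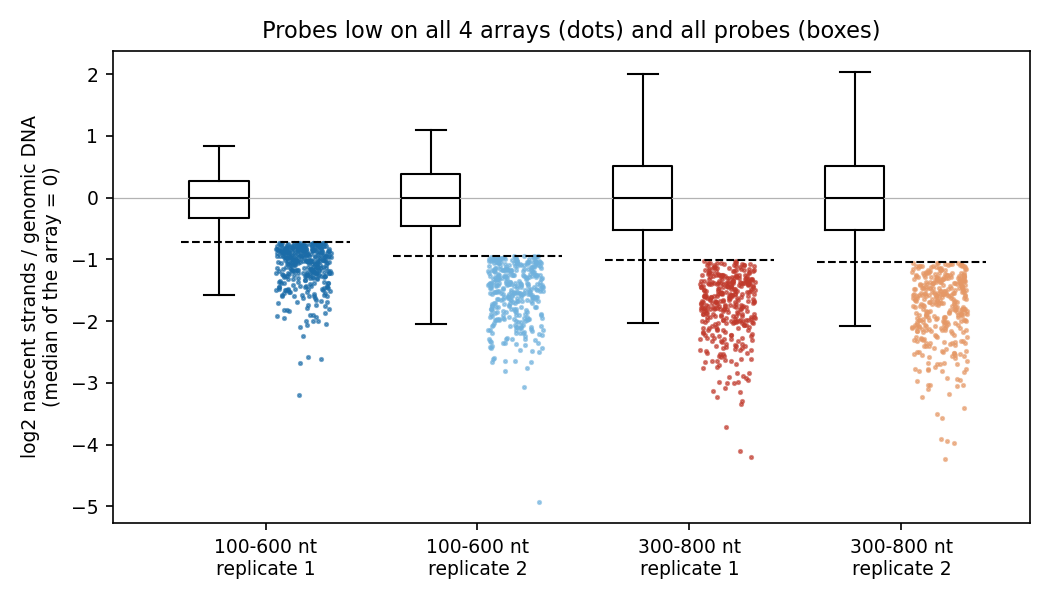
Log2 ratio of nascent to genomic signal (y axis, median of each array at 0) on the 4 arrays (x axis); dots are the 355 members, boxes give the quartiles of all 19805 probes with whiskers at their 1st and 99th percentiles, and dashed lines mark the limit of the lowest 10%. All members lie under the limits because they were chosen so, with medians from -1.03 to -1.70.

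How far an array reproduces a low value can be read from arrays that took no part in the choice. Of the 1786 probes that were low on both 300–800 nt arrays, 29.7% were also low on replicate 1 and 41.7% on replicate 2 of the 100–600 nt arrays, against the 10% that the limit sets for all probes. Of these probes 355 (19.9%) were low on both 100–600 nt arrays, beside 4.20% of all probes. In the opposite direction, 42.7% of the 831 probes low on both 100–600 nt arrays were low on both 300–800 nt arrays, beside 9.02% of all probes. Replicate 1 of the 100–600 nt arrays was low at 47.7% of the 744 probes that the other 3 arrays put in their lowest 10%. The share was 66.9% of 531 probes for replicate 2 of the 100–600 nt arrays. It was 94.4% and 94.7% for the 300–800 nt arrays, but there the choice still used the other array of the same slide (r = 0.989). Those shares are therefore nearly set by the choice and cannot be compared with the shares of the 100–600 nt arrays. The members' own spots made the choice, so their place under the limit is a description and no test of it. Of these spots, 98.03% to 98.97% lay under the limit of their array. The same holds for repeated spots. On each 300–800 nt array, where every probe has 2 spots, 341 of 355 members had both under the limit, whereas on the 100–600 nt arrays only 16 members have repeated spots. On the 100–600 nt arrays the software had marked 5.43% and 10.9% of the members' spots, fewer than the 7.07% and 16.4% of all tiled spots.

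The low probes were poor in cytosine and rich in purines. They held 9.20 ± 3.94 cytosines (mean ± SD over the 355 members), against 12.7 ± 3.93 over all probes, and 14.4 ± 5.09 guanines against 12.6 ± 3.89. Adenine was more frequent, with 20.5 against 17.3 bases, and thymine less, with 15.9 against 17.4 bases. The content of C+G hid this asymmetry, with a median of 40.0% in the members and 41.7% in all probes, because the low number of cytosines was partly balanced by guanines. Purines made up a median of 60% of the members and 50.0% of all probes, and 258 members (72.7%) had more guanines than cytosines, against 46.2% of all probes. The median longest stretch without cytosine spanned 16 bases in the members and 12 in all probes. The probes high on all 4 arrays had a median of 16 cytosines and 53.3% C+G, with as many purines as all probes (50.0%).

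The share of low probes depended strongly on the number of cytosines. Of the 157 probes with 4 cytosines, the fewest on the arrays, 27 (17.2%) were members. The share was 10.7% with 5 to 6 cytosines, 3.86% with 7 to 8, and 0.379% with 17 to 20, compared with 1.79% of all probes. It was 1.07% (7 of 653) with more than 20 cytosines. For guanine the share was 4.17% with 4 guanines, 1.13% with 11 to 12 and 8.06% with more than 20. Few cytosines together with many guanines gave 81 members among 547 probes (14.8% of the probes with at most 6 cytosines and at least 16 guanines), while only 2 of 3068 probes (0.0652%) with at least 13 of each base were members. The mirror composition did not behave alike. Of the 617 probes with at most 6 guanines and at least 16 cytosines, 12 (1.94%) were members, near the share of all probes.

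**Figure D2:**
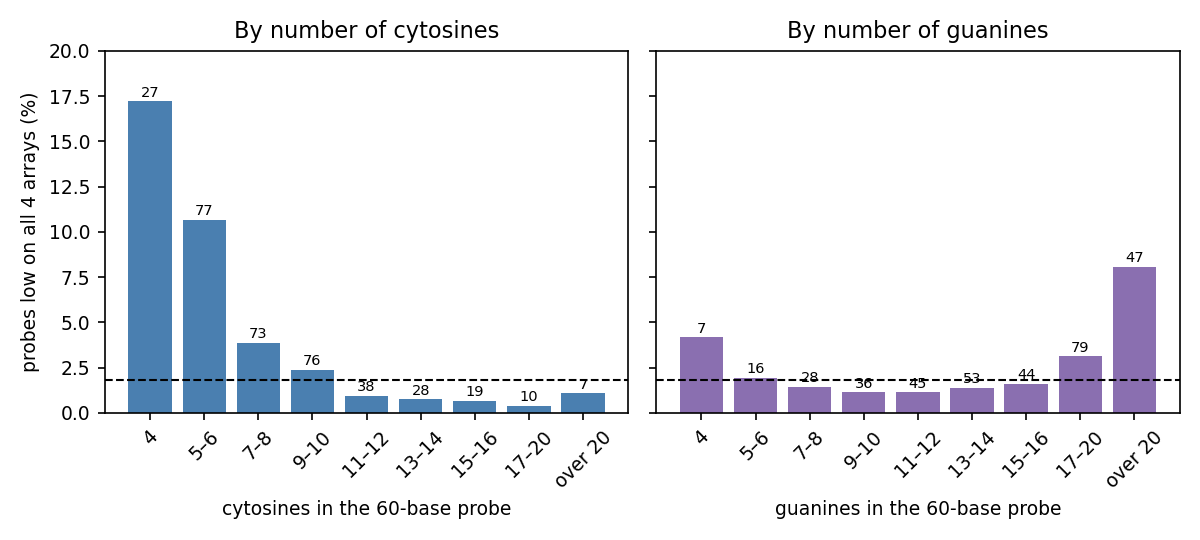
Percentage of probes that are low on all 4 arrays (y axis) by the number of cytosines (left) or guanines (right) in the 60-base probe (x axis); numbers above the bars count the members and the dashed line marks the share over all probes (1.79%). The share falls from 17.2% at 4 cytosines to 0.379% at 17 to 20 and is 1.07% above 20, and by guanine it is highest at more than 20 guanines (8.06%).

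The same asymmetry appeared in many but not all of the short words counted, read 5′ to 3′ along the probe. GGA occurred 1.50 times per member and 0.973 times per probe of the whole set, and GAG 1.48 against 0.950 times, whereas CCT, the reverse complement of AGG, occurred 0.583 against 1.13 times and AGG itself 1.58 against 1.10 times. Of the 503 probes that hold AGAGAG, 23 (4.57%) were members, against 6 of the 529 probes (1.13%) with its reverse complement CTCTCT. The run GGGG was found in 63 members among 1920 probes (3.28%) and CCCC in 19 among 1986 (0.957%). GGAAGG gave 17 of 416 probes (4.09%) and CCTTCC 6 of 460 (1.30%). The gap was smaller for AAGGAA (24 of 786, 3.05%) against TTCCTT (15 of 751, 2.00%). It was also smaller for AAAAAA (10 of 284, 3.52%) against TTTTTT (7 of 290, 2.41%). The cytosine-rich CCTAACC went the other way, with 4 of 45 (8.89%) against 2 of 65 (3.08%) for GGTTAGG, and so did CACACACA, given below. These words share bases with each other and with the cytosine counts above, and were counted on the printed strand of each probe. CpG dinucleotides, the sites of methylation that are dense in CpG islands, were absent from 256 members (72.1%) and from 57.8% of all probes. At least 2 CpGs were held by 13 members (3.66%), by 12.2% of all probes and by 56.3% of the probes high on all 4 arrays.

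The 4 arrays did not share 1 relation to base composition. The number of cytosines correlated with the log2 ratio across probes with r = 0.472 and 0.467 on the 300–800 nt arrays and 0.306 on replicate 2 of the 100–600 nt arrays, but with r = -0.176 on replicate 1. Guanines gave r = -0.204, -0.206 and -0.0732 on the former arrays and 0.262 on the latter. The lowest 10% of the 100–600 nt replicate 1 array had a median of 15 cytosines and 10 guanines, while the lowest 10% of its replicate had 10 and 13, and those of the 300–800 nt arrays had 9 cytosines and 14 or 15 guanines. Probes with 4 cytosines had a median log2 ratio under 0 on all 4 arrays (-0.39, -1.06, -1.27 and -1.28). Probes with more than 20 cytosines were low on replicate 1 of the 100–600 nt arrays (median -0.76) and high on the 300–800 nt arrays (0.72 and 0.74). Among the probes that the other 3 arrays put in their lowest 10%, the 389 that were not low on this array had a median of 7 cytosines and the 355 members had 9. Its hybridisation and its dye channel were not compared with a dye swap, and the part of labelling in these relations was not tested.

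**Figure D3:**
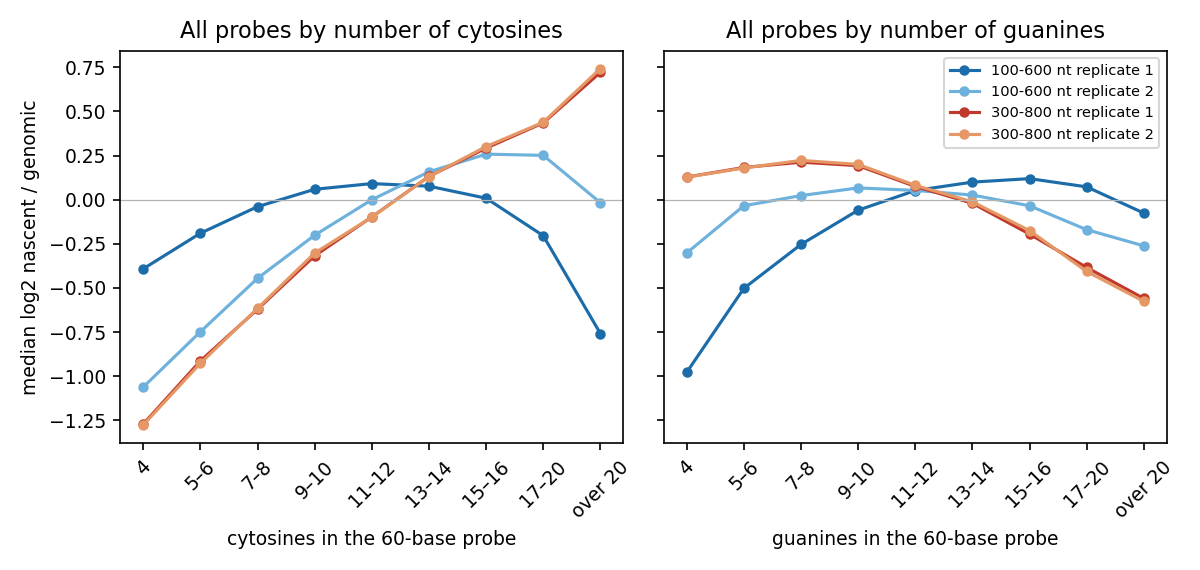
Median log2 ratio of nascent to genomic signal (y axis) of all probes by the number of cytosines (left) or guanines (right) in the probe (x axis), 1 line per array. Both 300–800 nt lines lie on top of each other and climb with cytosine, whereas the 100–600 nt replicate 1 line drops to -0.76 at more than 20 cytosines and is lowest with 4 guanines (-0.98).

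The composition of the low probes depended on how the signals were corrected for background and intensity. With loess within each array the same rule gave 305 probes with a median of 10 cytosines and 56.7% purines, of which 220 were among the 355. With normexp background correction it gave 206 probes with a median of 10 cytosines, of which 159 were among the 355. With normexp followed by loess it gave 172 probes with a median of 14.5 cytosines and 43.3% purines, of which 59 were among the 355, so that the shortage of cytosine was not present under that processing. When a trend on the numbers of C and G was removed from each array, an alternative added after the data were seen, the rule gave 361 probes, of which 223 were among the 355. That step takes the relation to cytosine out of the ratios by construction, so the median of 12 cytosines in these probes says nothing further about composition.

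Runs of adjacent low probes were short and few. Of the 355 members 207 were the only probe of their fragment and could have no neighbour. The other 148 lay in the 3630 fragments with several probes, of which 138 held 1 member and 5 held 2. Of the 101 members followed by a further probe in their fragment, 4 (3.96%) were followed by a member, against 0.867% of all 9223 probes with a following probe. This difference rests on 4 pairs, and with normexp background correction none of 52 members with a following probe was followed by a member (0%). At the lowest 20% of each array the count was 26 of 286 (9.09%). That limit gives 989 members in place of 355, which alone makes a following member more frequent. The share over all probes was not computed at that limit, so the values cannot be compared. No stretch of more than 2 consecutive members was found. In the lowest pair, the probes at offsets 920 and 1250 of fragment 67034 printed above, the log2 ratios were -1.14, -1.90, -2.48 and -2.57 at the first and -1.93, -1.96, -2.00 and -2.32 at the second. These probes hold 5 and 4 cytosines and 73.3% and 80.0% purines. The pair of fragment 108744, at offsets 350 and 650, had mean log2 ratios over the arrays of -2.31 and -1.45, with 7 and 5 cytosines. The pair of fragment 46264, at offsets 2690 and 2930, was different in composition, with 25 and 15 cytosines. Its first probe was lower with 100–600 nt strands (-2.23 and -1.83) than with 300–800 nt strands (-1.09 and -1.23), and its second probe higher (-1.16 and -1.21 against -2.03 and -2.02).

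The probes next to a member were much closer to the bulk than the members, but lower than other probes on every array. The 173 neighbours that were not members had median log2 ratios of -0.07 and -0.12 on the 100–600 nt arrays and of -0.15 and -0.17 on the 300–800 nt arrays, against 0.07, 0.08, 0.12 and 0.12 for the other 12532 probes of fragments with several probes. Between 9.25% and 13.3% of the neighbours were in the lowest 10% of an array, against 5.90% to 7.0% of those other probes, and members in such fragments had medians of -1.03 to -1.58. The neighbours had a median of 13 cytosines, like the other probes, whereas the members beside them had 8.

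Members were most frequent in short fragments and near fragment ends. Of the members 207 (58.3%) were the only probe of their fragment, against 35.1% of all probes and 18.6% of the probes high on all 4 arrays. The median fragment length was 338 bases for members, 750 for all probes and 1148 for the high probes. In fragments under 100 bases 39 of 724 probes (5.39%) were members, and in fragments of at least 1000 bases 65 of 7342 (0.885%). This order was seen within classes of cytosine number. With 9 to 14 cytosines the share was 5.76% under 100 bases and 0.439% at 1000 bases or more, and with at most 8 cytosines it was 8.05% and 4.85%, with the highest share of 11.5% at 100 to 149 bases. In fragments of at least 1000 bases, 17 of 700 probes (2.43%) that began or ended within 60 bases of an end were members, compared with 48 of 6642 (0.723%) further in. Fragments are separated by sequence left out of the tiling, and what lies beyond their ends was not analysed here.

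**Figure D4:**
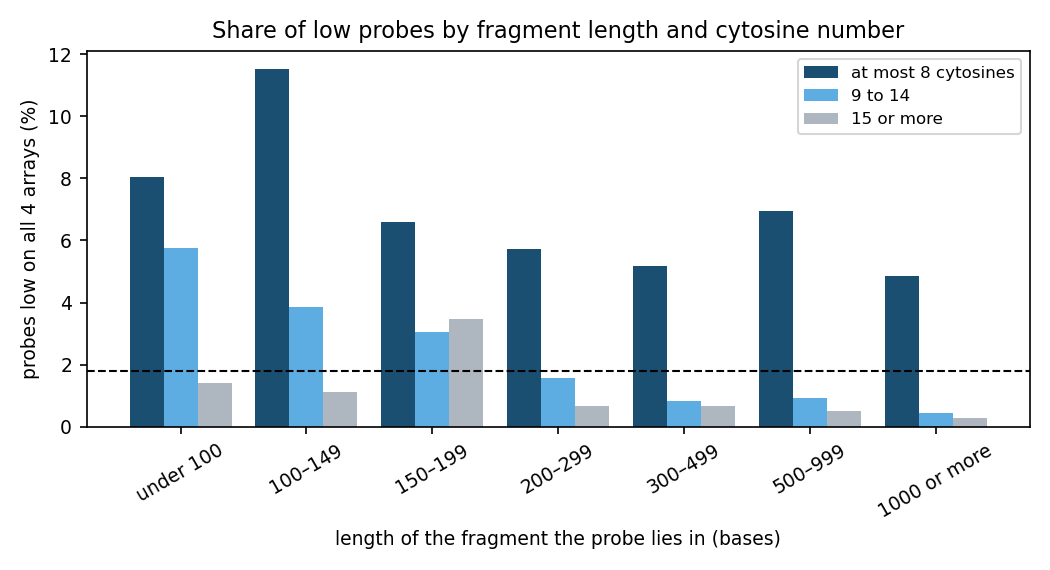
Percentage of probes that are low on all 4 arrays (y axis) by the length of the tiled fragment in bases (x axis), for probes with at most 8, 9 to 14, and 15 or more cytosines (bars); the dashed line marks the share over all probes (1.79%). The share drops with length from 5.76% to 0.439% in probes with 9 to 14 cytosines, and stays above the line at all lengths with at most 8.

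The 3 regions held similar shares of low probes, with 127 of 6842 probes on chromosome 3 (1.86%), 104 of 5882 in region 1 of chromosome X (1.77%) and 124 of 7081 in region 2 (1.75%). Of the 577 probes in the 117 fragments that hold a probe listed for an ORI in the study, 2 (0.347%) were members, and none of the 150 listed probes was a member. The listed probes are among the 577 and were themselves chosen for high ratios on the 300–800 nt arrays, which lowers the share of members. The share in other fragments of like length was not computed. The first of the 2 members lies at chrX:46103385-46103444 (Ensembl mouse build 35, fragment 43276), 781 bases from a probe listed for an ORI in an intron of Hs6st2, a heparan sulphate sulphotransferase gene. It gave log2 ratios of -0.90, -1.47, -1.67 and -1.62. The second lies at chr3:95546733-95546792 (same build, fragment 105371), 1320 bases from a probe listed for an ORI at the promoter of Vps45, a gene of vesicle transport, and gave -1.54, -1.66, -1.70 and -1.70. Both were low to a similar degree on the 300–800 nt arrays.

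Exact matches to RefSeq promoter windows (GRCm38.p6, 250 bases before to 50 after the gene start) were found for 125 probes of 104 genes, and all of these read as the plus strand of the assembly. Of them 3 (2.40%) were members, near the share of 1.79% over all probes. High on all 4 arrays were 9 of the 125, beside 167 of all 19805 probes. The 3 members are described as single probes. The member probe of Gja5, the gene of the gap junction protein connexin 40, is shown because it is both in a promoter and free of cytosine over its capitals, a stretch of 26 bases.
Gja5, chr3:97032211-97032270, plus strand: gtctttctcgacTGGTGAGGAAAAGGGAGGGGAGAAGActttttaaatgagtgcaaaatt
It gave log2 ratios of -1.69 and -2.24 with 100–600 nt strands and of -1.49 and -1.62 with 300–800 nt strands. The member at the promoter of Cd160, a receptor gene of lymphocytes, lies at chr3:96829522-96829581 and gave -1.03, -1.06, -1.05 and -1.14. That of Zfp92, a zinc finger protein gene, lies at chrX:73411408-73411467 and gave -0.86, -1.25, -1.34 and -1.24. They hold 8 and 6 cytosines and lie upstream of the gene start.

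The signals of both channels show which of them made the ratio low. Each signal is given on the log2 scale relative to the median of all probes in that channel. At members the nascent strand signal had a median of -1.003 and -1.47 on the 100–600 nt arrays and of -1.99 and -2.00 on the 300–800 nt arrays. The genomic DNA signal had a median of 0.03 and 0.00 on the former and of -0.29 and -0.32 on the latter. Between 60% and 63.4% of the members were in the lowest 10% of the nascent strand signal. In the genomic DNA signal, 9.86% to 12.7% were in the highest 10%. The lowest 10% of the genomic DNA signal held 6.48% and 5.07% of the members on the 100–600 nt arrays. On the 300–800 nt arrays it held 14.08% and 12.96%, more than the highest 10% did there (10.14% and 9.86%). Probes high on all 4 arrays had nascent medians of 0.69, 0.92, 2.09 and 2.15 and genomic medians from -0.09 to 0.52. The members' nascent signals were dim but measured. The median raw signal at their spots was 2.64 to 3.84 times the local background, against 4.24 to 8.79 times for all tiled spots, and at least 99.01% of the spots were well above background by the software's own test. Since the ratio chose the members, these levels describe the choice.

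**Figure D5:**
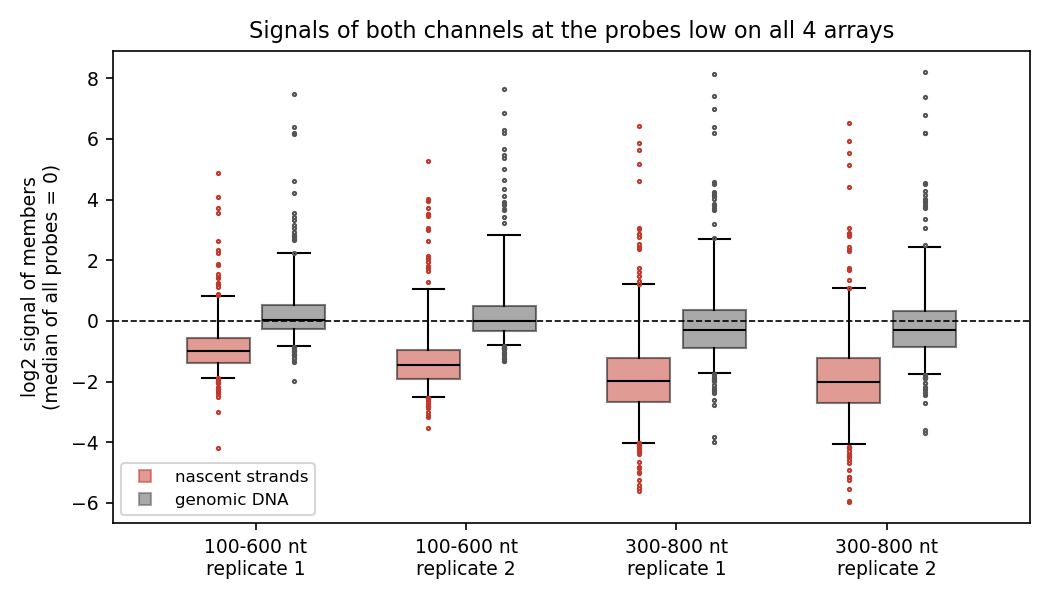
Log2 signal of the 355 members relative to the median of all probes (y axis, dashed line at 0) on each array (x axis) for nascent strands and genomic DNA; boxes give quartiles, whiskers the 5th and 95th percentiles, and points the members beyond them. Nascent medians lie at -1.003 to -2.00 and genomic medians at -0.32 to 0.03, with points of very bright genomic DNA up to 8.20.

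A small set of members was bright in genomic DNA. In 24 members the genomic DNA signal, averaged over the 4 arrays, was more than 2 above the median on the log2 scale, and in 22 of these 24 the nascent strand signal was above its median on all 4 arrays too. Of the 24 members 12 (50%) hold ACACAC or CACACA. The repeat was held by 76 of all 616 probes with as bright a genomic signal (12.3%), by 6 of the other 331 members (1.81%) and by 3.44% of all probes. They were chosen by their genomic signal after it was seen, and 3 of the brightest are printed with the longest tandem repeat in capitals.
fragment 105689 (chromosome 3), offset 10: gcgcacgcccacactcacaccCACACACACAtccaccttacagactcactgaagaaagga
fragment 46517 (chromosome X), offset 180: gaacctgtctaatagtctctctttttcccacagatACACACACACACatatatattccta
fragment 42763 (chromosome X), offset 250: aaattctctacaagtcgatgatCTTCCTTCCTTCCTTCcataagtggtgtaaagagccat
The probe of fragment 105689 also has the highest C+G content of the members (55.0%). Its genomic DNA signal lay 7.47, 7.63, 8.14 and 8.20 above the median on the 4 arrays and its nascent signal 4.89, 5.26, 6.41 and 6.51, which left log2 ratios of -2.58, -2.36, -1.76 and -1.70. Members were 15 of the 185 probes (8.11%) whose genomic signal was more than 3 above the median. The bright members had a median of 15 cytosines. The repeat CACACACA was found in 58 probes, of which 7 (12.07%) were members, and TGTGTGTG, its reverse complement, in 56 probes, of which 2 (3.57%) were members. Without probes over 3 in the genomic signal the rule gave 357 probes, 340 of them members, with a median of 8 cytosines.

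The last comparison was between the strand lengths. Both the test and the rule that chose the members use the same ratios, and the limits of the rule are lower on the 300–800 nt arrays, so the counts below are a description of the chosen probes and nothing is read from their distance to the background. In limma's moderated test across all probes with Benjamini-Hochberg adjustment, 89 members (25.1%) were called lower with 300–800 nt than with 100–600 nt strands and 9 (2.54%) higher. Of all probes 14.3% were called lower and 17.5% higher. When the 300–800 nt arrays were averaged and counted as 1 sample, limma called 14 members (3.94%) lower, beside 0.550% of all probes, and 0 higher, beside 5.00%, with 67 members at an unadjusted p under 0.05. In the fit with 1 averaged sample the spread comes from the 100–600 nt arrays alone, and the averaged sample is assumed to vary like them. The direction of the difference depended on the processing. Its median over the members was -0.42, but 0.25 with normexp background correction and 0.11 after division of each array by its SD. Normexp left 3 calls at members, beside 1307 probes called higher and 398 lower of all 19805. Division by the SD left 33 calls (14 lower and 19 higher), beside 1093 lower and 1901 higher.

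The member of fragment 106390 had log2 ratios of -1.58 and -1.44 with 100–600 nt strands and of -3.34 and -3.40 with 300–800 nt strands, a difference of -1.86 with a limma adjusted p of 0.00711 from 4 arrays and of 0.0143 (SE 0.426) with the 300–800 nt arrays as 1 sample. The probe of fragment 46517 with its CA repeat gave -2.67 and -2.75 against -1.56 and -1.49, a difference of 1.19. Its limma adjusted p was 0.011 from 4 arrays and 0.113 (SE 0.425) with the 300–800 nt arrays as 1 sample, so it was not called then. Of the 9 members called higher from 4 arrays 6 were among the 24 with bright genomic DNA, and none of the 9 was called with the 300–800 nt arrays as 1 sample.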

How the data were processed

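Nascent strands of mouse PGK12.1 cells were hybridised with total DNA of the same cells to 4 two-colour Agilent arrays. The authors deposited the signal intensity of both dyes for each spot. For the 100–600 nt arrays (Feature Extraction 7.5.1) the deposited processed intensities equal the background-subtracted ones at all 21099 tiled spots, while those of the 300–800 nt arrays (version 9.5.3.1) are also dye-normalised, and for these the authors also deposited log10 values of the ratio Cy5 to Cy3. Per the labels both DNAs were labelled by random priming with Cy-dCTP, with no dye swap. Loess-normalised values of the study were not used here.

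Log2 ratios were computed from the processed intensities, repeated spots were averaged and each array was centred on its median over 19805 probes (Python 3.11.15, numpy 2.4.6, pandas 2.3.3). Marked spots were kept. The fractions were compared with limma 3.58.1 in R 4.3.3 (lmFit and eBayes, adjusted p under 0.05), tested on simulated data. The arrays of a fraction are replicates by their labels, and p-values measure the spread between these arrays. No source states that the replicate numbers pair the arrays across fractions, so the main fit has no block.

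Named probes are the 10 lowest by mean, the 3 lowest adjacent pairs, the 3 nearest to the limit on each side, the lowest and highest in C+G content, and members within 2 kb of a listed ORI probe. Bright, high and promoter probes were added later. Members, classes and words were chosen with earlier results of these data known. No genome of the arrays' build was used, so only members near a listed probe or in a RefSeq promoter window (GRCm38.p6) were placed. As alternatives, normexp (offset 50) and loess were run on all spots with controls at weight 0 in loess, normexp on the median signals, which all arrays have. Binomial intervals at 95% or the SD over the arrays judged whether a value moved.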

Additional observations from a re-analysis of the deposited data

Results flagged for a closer look

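The log2 ratio differed between the strand lengths at 98 members in limma with all 4 arrays, a difference between groups that cannot be told apart from the dye and the array print. With 300–800 nt strands 25.1% of the members were called lower and 2.54% higher, beside 14.3% and 17.5% of all probes. The count is therefore a description of the chosen probes. Among the probes named by rule, the difference (300–800 nt minus 100–600 nt, log2) was -1.31 in fragment 43367, -2.29 in fragment 65239, -1.93 in fragment 109025, -2.13 in fragment 105606, -1.08 in fragment 44460, -1.86 in fragment 106390 and -2.21 in fragment 44263. In fragment 46264 it was 0.87 at offset 2690 and -0.84 at offset 2930. In fragment 65724 it was -0.54. The bright members of fragments 105689, 46517, 42763 and 66395 had differences of 0.74, 1.19, 0.83 and 0.91. Of these 14 probes 5 were also called by limma with the 300–800 nt arrays averaged to 1 sample, namely those of fragments 65239, 109025, 105606, 106390 and 44263.

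The 100–600 nt arrays also hold 72 spots that are neither controls nor tiled probes. Of these, 59 on replicate 1 and 72 on replicate 2 were well above background in both channels, a signal outside the tiled probes that was not analysed further.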

How the results depend on the processing

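With 4 arrays of 1 cell line, of which both 300–800 nt arrays weigh as 1 sample, a low ratio at a single probe has few independent measurements behind it. The number of members was 206 with normexp, 172 with normexp and loess, 105 at the lowest 5% and 989 at the lowest 20% of each array, and 375 to 744 when each array was left out in turn, the highest without the 100–600 nt replicate 1 array. It was within 1.5 times of 355 under the other alternatives. A similar number does not mean the same probes, since 220 of the 305 probes with loess were among the 355. Their median C+G content was 43.3% with normexp and loess, 41.7% after removal of a C+G trend, 38.3% without bright probes, and 38.3% to 40.0% without each array. Their median number of cytosines was 14.5 with normexp and loess and 12 after removal of a trend on C and G, which sets it by construction, and 8 to 10 without each array. Single-probe fragments held 50.0% of them with normexp and loess, 54.4% after removal of a C+G trend, 62.9% at the lowest 5%, and 53.9% to 61.0% without each array. A member followed a member in 0% with normexp, in 0.917% after removal of a trend on C and G, in 9.09% at the lowest 20%, and in 3.77% to 6.94% without each array. More members alone make a following member more frequent. The share over all probes was not computed for these alternatives, so the higher values show no stronger clustering. Of the probes low on both 300–800 nt arrays, 17.1% with loess and 15.98% with normexp were low on both 100–600 nt arrays, against 19.9%. The channel medians moved by less than the SD between arrays.

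The members called by limma between the fractions numbered 3 with normexp, 33 after division by the SD of the array, 14 with the 300–800 nt arrays averaged, and 13 to 290 without each array. The lowest counts came without a 300–800 nt array (18 and 13) and the highest without a 100–600 nt array (246 and 290), where the lone array of a fraction is assumed to vary like the other fraction. The deviations of the arrays numbered 1 correlated with r = -0.00211 between the fractions. The 300–800 nt arrays differed no more than repeated spots predict (SD of 0.089 against 0.101). This correlation can therefore not show whether the hybridisation numbers pair the arrays. With these numbers as a replicate block limma called 125 members, beside 4008 probes higher and 3255 lower of all 19805. The median difference over the members turned from -0.42 to 0.25 with normexp and to 0.11 after division by the SD. The causes of these changes were not tested.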
